A study of Homo sapiens with 6 samples.

Results

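The anaphase-promoting complex, also called the cyclosome, is the ubiquitin ligase that ends mitosis. Its core subunits and its activators were followed after siRNA against the long noncoding RNA CONCR. The set named 10 genes, the subunits CDC27, CDC16, CDC23, ANAPC7, ANAPC1, ANAPC4, ANAPC5 and ANAPC10 and the activators CDC20 and FZR1. It was selected on a measured value of the same comparison, the low CDC27 signal after CONCR siRNA, and the other genes were added as the partners of CDC27. Each gene was read from the array feature (transcript cluster) annotated to its symbol alone. That gave 9 of the 10 genes, each with 1 cluster, out of 22411 genes with such a cluster in the series. ANAPC1 had only a cluster shared with its pseudogene ANAPC1P4, whose signal cannot be assigned to one of them. Of the 9, 8 passed a filter on dim clusters (a log2 signal above 4 on at least 3 arrays), and ANAPC10 did not.

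Per the labels, 3 arrays came from cells of A549, a long-established lung adenocarcinoma line of human origin, given CONCR siRNA, a combination of 2 siRNAs, and 3 from cells given a control siRNA. All cells, controls included, received 40 nM siRNA by lipid transfection in 2 rounds, the second 24 h after the first, and were grown in 10% serum, and total RNA was hybridised to whole-transcript arrays. The series calls the knockdowns independent without saying whether cultures were separate, so the errors below describe only how these arrays scattered, which can be technical. The median log2 signal of the arrays lay between 3.83 and 3.89, and array pairs correlated across tested clusters at 0.989 to 0.993 inside a group and at 0.987 to 0.991 from one group to the other. The targeted RNA, DDX11-AS1 (CONCR), had log2 signals of 4.23, 4.49 and 4.64 with CONCR siRNA and 4.71, 4.71 and 4.64 with control siRNA. The difference of -0.23 (SE 0.10, limma adjusted p = 0.42) did not pass, so this probe set does not check the labels. Its neighbour DDX11, a cohesion helicase, differed by -0.02 (limma adjusted p = 0.94). The epithelial keratins KRT8 and KRT18 had mean log2 signals of 11.3 and 11.6. The epithelial marker gene CDH1 (E-cadherin, not FZR1) was at 8.12. The other keratins listed as epithelial markers were dimmer, KRT7 at 6.01 and KRT19 at 4.81. EPCAM, another epithelial marker, lay below the filter at 2.78, as did the leukocyte marker PTPRC at 1.99 and the fibroblast marker DCN at 1.88. Markers of other cell types that passed the filter were 3 of 6 listed for fibroblasts (COL1A1 at 5.85, PDGFRB at 4.39 and COL1A2 at 4.36), 1 of 6 for leukocytes (ITGAM at 4.57) and 3 of 6 for endothelium (CLDN5 at 5.68, VWF at 4.55 and CDH5 at 4.22), and none of these 7 was called.

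The complex attaches ubiquitin to mitotic proteins and so marks them for the proteasome. An arm of subunits built from tetratricopeptide repeats (CDC27, CDC16, CDC23 and ANAPC7) stands on a platform (ANAPC1, ANAPC4 and ANAPC5), and an activator, CDC20 in mitosis or FZR1 (CDH1 protein) from mitotic exit into G1, brings in the substrate together with ANAPC10. With CDC20 the complex destroys securin and cyclin B, which frees separase to cut cohesin and lets sister chromatids part. Most core subunits are essential for growth in dividing cells, and the complex is held in check by the spindle checkpoint until chromosomes are attached.

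The promoters of CDC27, which was lower after CONCR siRNA, and of CDC23 and CDC20, an arm partner and an activator that were not called, are shown so that the 3 can be compared. Each window runs from 250 bases before to 50 bases after the gene's start in RefSeq, build GRCh38.p14, read along the gene's own strand. They lie at chr17:47189246-47189545 (minus strand) for CDC27, chr5:138213274-138213573 (minus strand) for CDC23 and chr1:43358731-43359030 (plus strand) for CDC20. Capitals mark matches, on either strand, to CCAAT (the box bound by NF-Y), TTTGAA (the cell cycle genes homology region read by the MuvB core) and CGGAAG (a core of ETS factor sites).
CDC27: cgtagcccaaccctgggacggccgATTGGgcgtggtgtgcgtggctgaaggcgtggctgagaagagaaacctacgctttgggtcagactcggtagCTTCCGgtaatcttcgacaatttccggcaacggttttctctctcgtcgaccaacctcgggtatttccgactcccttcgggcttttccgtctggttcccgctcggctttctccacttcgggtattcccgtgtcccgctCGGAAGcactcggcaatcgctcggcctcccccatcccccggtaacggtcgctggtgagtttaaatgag
CDC23: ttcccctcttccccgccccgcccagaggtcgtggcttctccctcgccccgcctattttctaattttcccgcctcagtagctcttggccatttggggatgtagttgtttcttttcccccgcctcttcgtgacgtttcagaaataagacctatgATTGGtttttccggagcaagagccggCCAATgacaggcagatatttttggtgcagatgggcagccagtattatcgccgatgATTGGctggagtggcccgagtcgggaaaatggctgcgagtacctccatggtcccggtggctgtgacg
CDC20: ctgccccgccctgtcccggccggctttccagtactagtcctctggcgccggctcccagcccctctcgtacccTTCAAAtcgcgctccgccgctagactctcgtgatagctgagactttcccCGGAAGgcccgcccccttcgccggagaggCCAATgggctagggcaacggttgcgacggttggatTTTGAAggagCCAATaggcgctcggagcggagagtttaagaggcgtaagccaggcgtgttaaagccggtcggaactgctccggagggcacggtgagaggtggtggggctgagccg

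The CDC20 window held 2 matches to TTTGAA, of which one began 65 bases before the start with a CCAAT match 10 bases on, at 55 bases. It also held a CCAAT match at 100 bases and 1 match to CGGAAG. The CDC27 window held no TTTGAA, 1 CCAAT match beginning 226 bases before the start, and 2 CGGAAG matches, at 155 and 18 bases. The window of CDC16, an arm partner that was not called, is not shown. It had the same counts, with no TTTGAA, 1 CCAAT match at 183 bases and 2 CGGAAG matches at 40 and 15 bases. The CDC23 window held 3 CCAAT matches, at 98, 72 and 17 bases, and neither of the other motifs. No matches overlapped in these windows. Among all 35116 promoter windows of this length, 34.6% held CCAAT, 15.2% TTTGAA and 19.5% CGGAAG. The E2F-type letters TTCGCGC (2.24% of windows) and TTGGCGC (3.04%) were in none of the 3 windows shown. Matches are letters in a window and were not tested for binding.

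CDC27, the arm subunit that helps dock the activators' C-terminal tails, was 2.08-fold lower with CONCR siRNA. Its log2 signal was 7.78, 7.56 and 7.72 with CONCR siRNA, and 8.65, 8.75 and 8.81 with control siRNA. All 3 CONCR siRNA arrays lay below all 3 controls, with a gap of 0.87 between the nearest arrays, against within-group SDs of 0.12 and 0.08 (n = 3 each). The group means were 7.69 and 8.74, a log2 difference of -1.05 (SE 0.08, 95% confidence interval -1.24 to -0.87), or 48.2% of the control signal. It ranked 11 from the lowest difference among 15497 tested genes, of which 13 were at least 2-fold lower. As this difference chose the gene, it is given as a description with no test. In RNA from whole cultures, a loss in some of the cells and a smaller amount in every cell cannot be told apart. RefSeq names 11 CDC27 pseudogenes, none with a cluster of its own symbol here, and whether their transcripts add to the CDC27 signal was not tested.

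**Figure D1:**
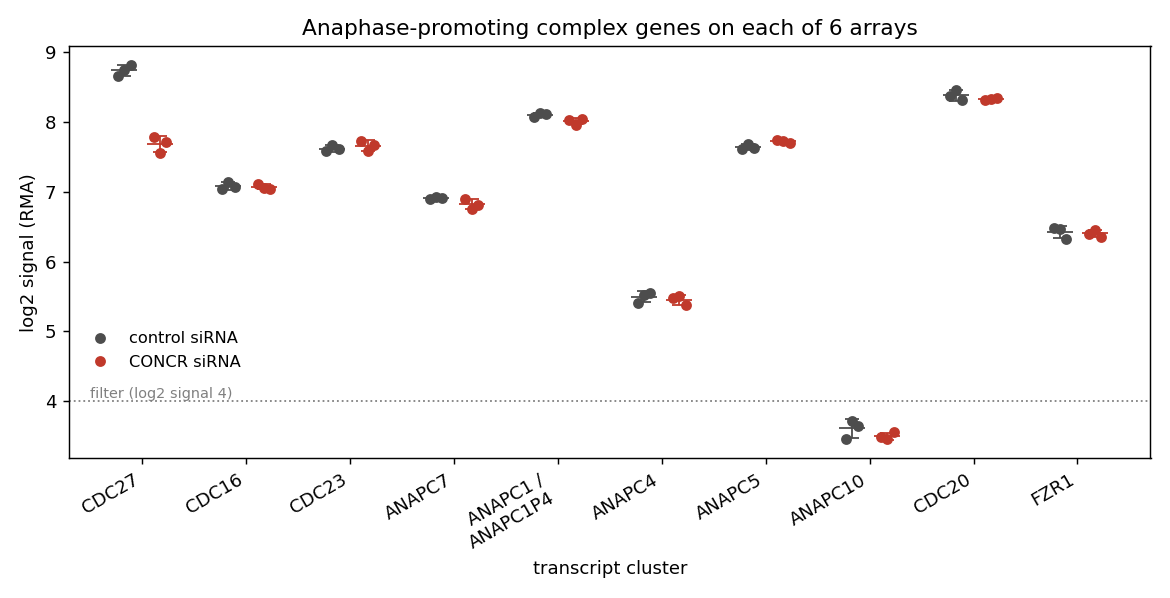
Log2 signal (RMA, vertical axis) of each transcript cluster on the 3 control siRNA arrays (grey) and the 3 CONCR siRNA arrays (red); dashes with bars are group means ± SD (n = 3), and the dotted line is the filter at a log2 signal of 4. CDC27 lies at 7.56 to 7.78 with CONCR siRNA against 8.65 to 8.81 with control siRNA, while in the other clusters the group means differ by 0.112 or less. Levels of different clusters are not comparable, since their probes differ.

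None of the 7 tested partners of CDC27 was called at an adjusted p of 0.05 (limma, adjusted over all tested clusters), and none had an unadjusted p under 0.05. The one call among the 8 tested genes was CDC27, lower. Over all 32540 tested clusters 1.88% were called, 1.50% lower and 0.384% higher. An unadjusted p under 0.05 in limma was found for 2306 of 15497 tested genes. Since the comparison chose the set, nothing is read from these counts. The 7 partners' log2 differences ran from -0.09 to 0.08 with a median of -0.02, while the median over all tested clusters was 0.01. Of the 7, 2 differences were above 0 and 5 below. Taken 1 gene at a time, their 95% confidence intervals reached from -0.22 to 0.20 at the widest, or 85.9% to 115% of the control value. They are not a joint bound on the 7. A p that missed the threshold does not show that the levels were equal, and these intervals give the size that the arrays would allow.

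**Figure D2:**
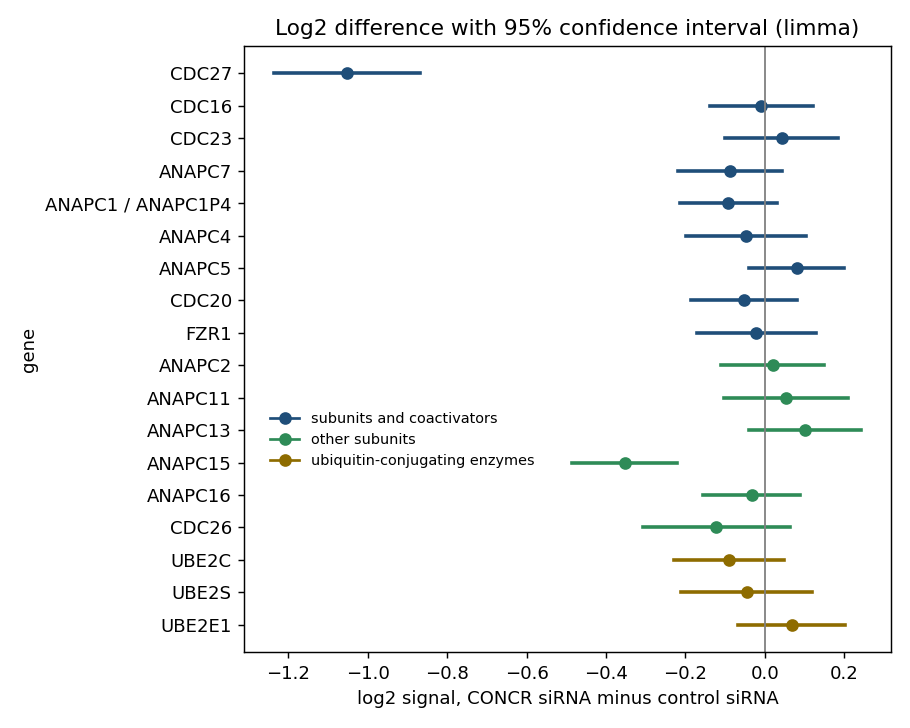
Log2 difference, CONCR siRNA minus control siRNA (horizontal axis), for each tested gene of the complex and its ubiquitin-conjugating enzymes; points are differences of means of 3 arrays each and lines are 95% confidence intervals from limma. The interval of CDC27 runs from -1.24 to -0.87 and that of ANAPC15 lies below 0, while the intervals of the other clusters include 0.

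CDC16, an arm subunit built like CDC27, had log2 signals of 7.12, 7.06 and 7.04 with CONCR siRNA and 7.04, 7.14 and 7.07 with control siRNA, and the groups overlapped. The difference was -0.01 (SE 0.05, 95% confidence interval -0.14 to 0.12). CDC23, which together with CDC16 forms the lower part of the arm, had 7.73, 7.58 and 7.67 against 7.58, 7.67 and 7.61. Its groups overlapped too, with a difference of 0.04 (SE 0.06, 95% confidence interval -0.10 to 0.19). ANAPC7, the repeat protein at the tip of the arm and in direct contact with CDC27, had 6.90, 6.76 and 6.81 against 6.89, 6.93 and 6.91. CONCR siRNA replicate 1 lay between the controls and the other 2 CONCR siRNA arrays lay below them. The difference of -0.09 (SE 0.06, 95% confidence interval -0.22 to 0.04) was the lowest among the tested partners.

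The platform was covered by 2 single-gene clusters and the shared one. ANAPC4, a platform scaffold, had a log2 signal of 5.47, 5.50 and 5.38 with CONCR siRNA and 5.41, 5.52 and 5.56 with control siRNA. Its groups overlapped (difference -0.05, SE 0.06, 95% confidence interval -0.20 to 0.10). ANAPC5, another scaffold of the platform, had 7.75, 7.72 and 7.70 against 7.61, 7.69 and 7.63. All 3 CONCR siRNA arrays were above all 3 controls, by a mean of 0.08 (SE 0.05, 95% confidence interval -0.04 to 0.20), and it was the 1 tested partner whose groups did not overlap. Over all tested clusters the groups did not overlap in 19.1%. The cluster annotated to both ANAPC1, the largest platform subunit, and ANAPC1P4 had 8.03, 7.96 and 8.05 against 8.07, 8.12 and 8.12. These groups did not overlap either, with a difference of -0.09 (SE 0.05, 95% confidence interval -0.21 to 0.03). The clusters of ANAPC1P1 and ANAPC1P2, further copies of ANAPC1, differed by -0.06 and -0.13, neither called. For ANAPC1P2 the groups did not overlap, and the 95% confidence interval ran from -0.25 to -0.01.

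ANAPC10, which contacts the substrate's destruction box beside the activator, was below the filter on all 6 arrays. Its log2 signal was 3.49, 3.46 and 3.56 with CONCR siRNA and 3.47, 3.73 and 3.65 with control siRNA. The groups overlapped, and at this signal no statement on a change was made.

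The activators CDC20 and FZR1 did not separate the groups. CDC20, which drives the complex at the metaphase to anaphase step, had log2 signals of 8.31, 8.33 and 8.34 with CONCR siRNA and 8.38, 8.46 and 8.31 with control siRNA. The lowest array of all was control siRNA replicate 3, so the groups overlapped (difference -0.05, SE 0.06, 95% confidence interval -0.19 to 0.08). The cluster of the pseudogene CDC20P1, whose probes may share signal with CDC20, differed by 0.04 (SE 0.06). FZR1, which keeps the complex active through G1, had 6.40, 6.45 and 6.36 against 6.48, 6.47 and 6.33. Its difference was -0.02 (SE 0.06, 95% confidence interval -0.17 to 0.13).

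Across arrays, within-group SDs of the 7 tested partners ran from 0.01 to 0.09. Measured from each gene's control mean, the partners' mean deviation was 0.02, -0.02 and -0.04 on the CONCR siRNA arrays and -0.02, 0.05 and -0.02 on the control arrays. The same deviations of CDC27 were -0.96, -1.18 and -1.02 on the CONCR siRNA arrays. Control siRNA replicate 2 had the highest partner mean of the 6. Of the 7, 5 had an absolute difference under the median over all tested genes, 0.06.

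**Figure D3:**
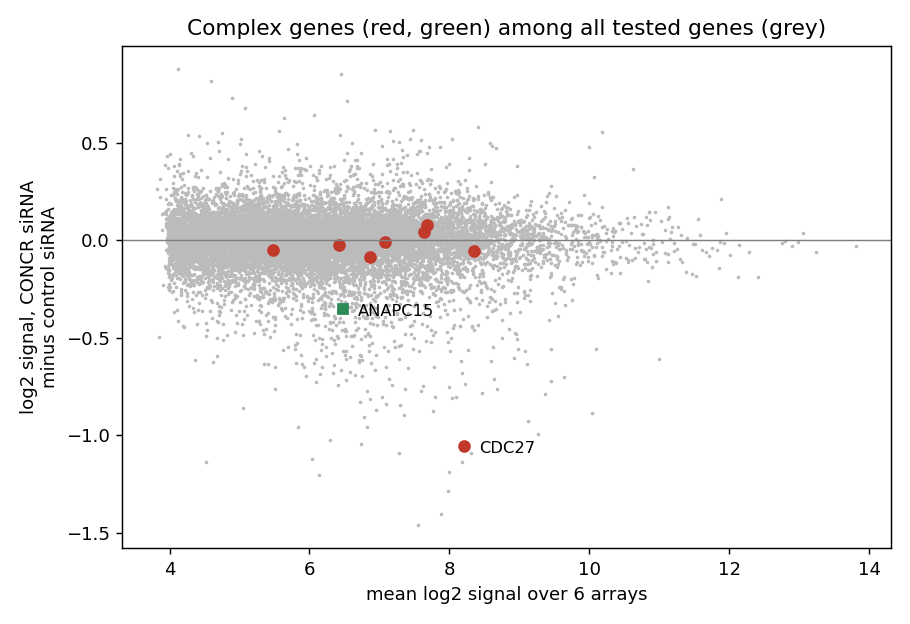
Log2 difference, CONCR siRNA minus control siRNA (vertical axis), against mean log2 signal over 6 arrays (horizontal axis) for 15497 tested genes (grey), the 8 tested genes of the set (red) and ANAPC15 (green square). CDC27 is at -1.05 near the lower edge of the cloud, ANAPC15 is at -0.35, and the 7 other red points lie between -0.09 and 0.08.

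The 5 genes with the profile closest to that of CDC27 were not genes of the complex. Closeness was the root mean square difference between centred log2 signals over the 6 arrays. The nearest of the other 15496 genes was APOO, a protein of mitochondrial cristae, at 0.04. FNBP1L, an actin-linked membrane-bending protein, followed at 0.05, then SLC9A2, a sodium-proton exchanger, at 0.06, LOC100129034 at 0.07 and USP46, a deubiquitinase, at 0.08. Their log2 differences ran from -1.12 for USP46 to -0.96 for SLC9A2 and FNBP1L, so all 5 were chosen for a size of change like that of CDC27. ANAPC15, a subunit of the complex outside the set, was at 0.36 and rank 311. Among the tested partners ANAPC7 was nearest, at 0.49 and rank 2289, and ANAPC5 farthest, at 0.57 and rank 11341. On chromosome 17, none of the 10 nearest tested protein-coding genes in RefSeq order (5 on each side of CDC27) was called, and their differences ran from -0.06 to 0.16, with none at an unadjusted p under 0.05. Over all tested clusters 1.88% were called, and 2306 of 15497 tested genes had an unadjusted p under 0.05 (limma). This neighbourhood was chosen after the CDC27 value was seen, and nothing is read from its counts.

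The subunits outside the set held 1 fall among 6 tested, where 1.50% of all tested clusters were called lower. ANAPC15, a small subunit that helps release the checkpoint complex from the ligase, had log2 signals of 6.31, 6.25 and 6.35 with CONCR siRNA and 6.70, 6.67 and 6.60 with control siRNA. All 3 CONCR siRNA arrays lay below all controls. It fell by 0.35 on the log2 scale (SE 0.06, limma adjusted p = 0.030), to 78.3% of control. This call was lost whichever array was left out, with adjusted p from 0.076 to 0.14 in limma, while the difference stayed between -0.38 and -0.33. The other 5 did not pass. ANAPC13, which stabilises the arm, was at 0.10 (SE 0.06) and CDC26, a helper that binds CDC16, at -0.12 (SE 0.08), both with overlapping groups. The catalytic pair ANAPC2 (cullin) and ANAPC11 (RING) was at 0.02 and 0.05, and ANAPC16, another small arm subunit, at -0.03. No tested neighbour of ANAPC15 on chromosome 11 (10 genes, chosen as for CDC27) was called, with differences from -0.16 to 0.14. As 1.88% of all tested clusters were called, nothing is read from this count.

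None of the 3 tested ubiquitin-conjugating enzymes that work with the complex was called (0 of 3 also at an unadjusted p under 0.05, limma). UBE2C, which starts the chains, was at -0.09 (SE 0.06), UBE2S, which extends them, at -0.05 (SE 0.07), and UBE2E1 at 0.07 (SE 0.06). Of these, UBE2C alone had groups that did not overlap. Over all tested clusters 1.88% were called, and the groups did not overlap in 19.1%. Among all 15497 tested genes, 2306 had an unadjusted p under 0.05 (limma).

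None of 10 tested inhibitors and checkpoint genes passed (limma, adjusted over all clusters), where 1.88% of all tested clusters did. Of the 10, 8 had a negative difference (6987 of 15497 over all genes) and 3 had an unadjusted p under 0.05 (2306 of 15497). The list median was -0.09. In 4 of the 10 the groups did not overlap, against 19.1% of all tested clusters. MAD2L1, the checkpoint protein that captures CDC20, had 6.69, 6.63 and 6.63 with CONCR siRNA and 6.92, 6.96 and 6.82 with control siRNA. Its groups did not overlap, and the difference was -0.25 (SE 0.06, limma adjusted p = 0.10). TRIP13, the ATPase that remodels MAD2L1, had 7.87, 7.87 and 7.86 against 8.01, 8.11 and 8.04, a difference of -0.19 (SE 0.05, limma adjusted p = 0.16). Of 13 alternatives, MAD2L1 passed in 2 and TRIP13 in 1. FBXO5 (EMI1), which blocks the complex before mitosis, was at -0.17 (SE 0.06, limma adjusted p = 0.29). Many of these genes, and of the substrates below, are expressed mainly in dividing cells, and the share of cells in each cycle phase was not measured.

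The mitotic switch around the complex gave no call among 10 tested genes, where 1.88% of all tested clusters were called. Of the 10, 6 were negative (6987 of 15497 over all genes) and 1 had an unadjusted p under 0.05 in limma (2306 of 15497). The list median was -0.02. In 2 of the 10 the groups did not overlap, against 19.1% of all tested clusters. CDC14B, a phosphatase, had 5.43, 5.42 and 5.43 against 5.55, 5.55 and 5.57, a difference of -0.13 (SE 0.05, limma adjusted p = 0.29) with no overlap. CDK1, the kinase that phosphorylates the complex in mitosis, was at -0.22 (SE 0.10, limma adjusted p = 0.42), and MASTL, which protects CDK1 substrates from phosphatase, at -0.14 (SE 0.07). ESPL1, the separase that the complex sets free, was at 0.01.

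Of 24 tested substrates, 3 fell, none rose and 21 did not pass, where 1.50% of all tested clusters were called lower. Their median difference was -0.06, and 18 were negative, against 6987 of 15497 over all genes. An unadjusted p under 0.05 in limma was found for 8 of the 24 (2306 of 15497 over all genes). In 11 of the 24 the groups did not overlap, against 19.1% of all tested clusters. FOXM1, the G2/M transcription factor, had 7.44, 7.29 and 7.48 with CONCR siRNA and 7.92, 7.98 and 7.85 with control siRNA, and fell by 0.51 (SE 0.07, limma adjusted p = 0.018). CKAP2, a spindle protein, had 6.10, 5.99 and 6.06 against 6.48, 6.56 and 6.61, and fell by 0.50 (SE 0.06, limma adjusted p = 0.012). RRM2, which encodes the ribonucleotide reductase small subunit, fell by 0.31 (SE 0.05, limma adjusted p = 0.041) on its brighter cluster, while a second, dimmer RRM2 cluster was at -0.14 (SE 0.12) and was not called. These 3 genes were already known to be lower in these arrays when the list was written, so they are no independent evidence of its direction. FOXM1 and RRM2 lost the call whichever array was left out, and CKAP2 lost it without CONCR siRNA replicate 2 or 3 or control siRNA replicate 2 or 3, at adjusted p of 0.059 to 0.073. SKP2 and NUSAP1 did not pass, at -0.28 and -0.31 (limma adjusted p = 0.054 and 0.056). Each of these 2 genes passed in 4 of 13 alternatives. CDC25A, a phosphatase that activates cyclin-dependent kinases, went the other way. It had 6.47, 6.52 and 6.32 against 6.06, 6.11 and 6.18, with no overlap and the highest difference of the list, 0.32 (SE 0.07, limma adjusted p = 0.093), and of the alternatives run it passed only with a filter at a log2 signal of 6 (limma adjusted p = 0.024, against a range of 0.024 to 0.32 over the alternatives).

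The substrates that CDC20 brings to the complex to start anaphase were among the uncalled. PTTG1, securin, had 5.41, 5.40 and 5.33 against 5.32, 5.44 and 5.39, a difference of -0.0042 (95% confidence interval -0.14 to 0.13). CCNB1, cyclin B1, had 8.62, 8.64 and 8.58 against 8.83, 8.83 and 8.77. Its groups did not overlap, with a difference of -0.19 (SE 0.05, limma adjusted p = 0.15). Of the alternatives run, CCNB1 passed only with a filter at a log2 signal of 6 (limma adjusted p = 0.036). SKP2, NUSAP1, CDC25A, PTTG1, CCNB1, ESPL1 and the subunits beyond ANAPC15, ANAPC13 and CDC26 were named after their values were seen. RNA levels of substrates do not measure their destruction, which takes place on the protein.

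**Figure D4:**
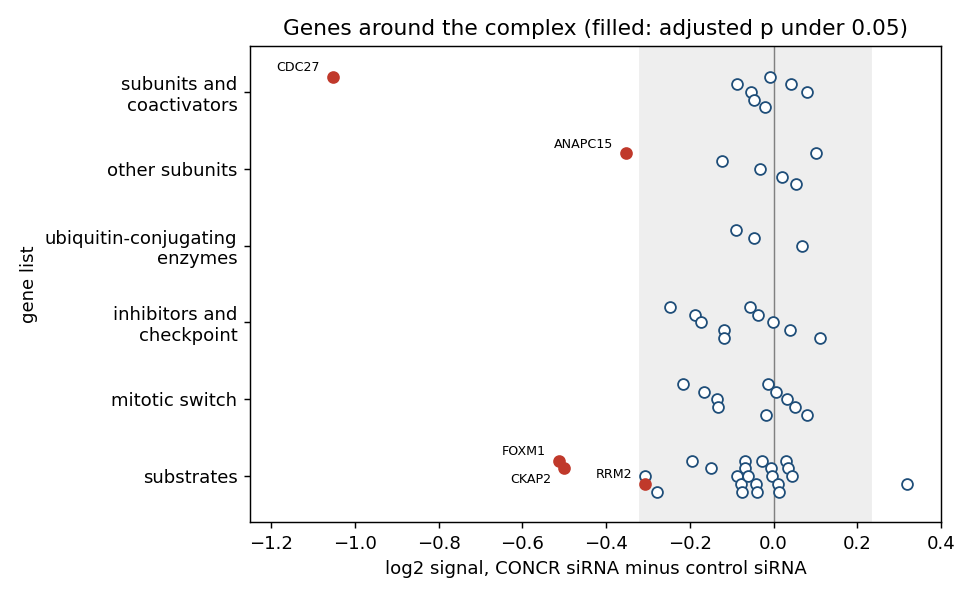
Log2 difference, CONCR siRNA minus control siRNA (horizontal axis), for each tested gene, 1 row of points per list; filled red points passed an adjusted p of 0.05 in limma, open points did not, and the grey band holds the middle 95% of differences over all tested genes (-0.32 to 0.23). CDC27, ANAPC15, FOXM1, CKAP2 and RRM2 are the filled points, all below 0. The difference of CDC27 chose the set, and FOXM1, CKAP2 and RRM2 were known to be lower when the list was written. Vertical scatter within a row has no meaning.

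Over the 5 lists, 4 of 53 tested genes fell and none rose. Of these 4, FOXM1, CKAP2 and RRM2 were known to be lower when the lists were written, so the count is a description and nothing is read from it against the 312 lower and 93 higher of all 15497 tested genes. The median difference was -0.05 over the lists and 0.01 over all genes. Leaving out a single array gave 0 or 1 call among the 53.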

How the data were processed

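Gene expression was measured in 6 samples on Affymetrix whole-transcript arrays. The deposited values are log2 signals per probe set, made by the authors with RMA and Affymetrix Power Tools per the submitters' processing notes, with versions and genome build not given in the sources used here. RMA equalises the arrays' distributions, so a change in total RNA per cell could not be seen, and precision is set by how many arrays there are. Of 70523 probe sets, 67528 were transcript clusters and 2995 others were left out. Symbols came from the platform annotation (23781 clusters with 1 symbol, 1543 with several, 42204 with none here), updated through the RefSeq list of GRCh38.p14.

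Clusters above a log2 signal of 4 on at least 3 arrays (32540) entered a comparison of the groups by limma 3.58.1 under R 4.3.3 (lmFit, eBayes, two-sided, Benjamini-Hochberg over all of them, threshold 0.05, 6.91 degrees of freedom). The fit was tested on simulated data. A gene was read from its brightest single-symbol cluster. Where several genes were named from a list, the rule took every called gene and up to 3 with the smallest p, and for CDC27 the 5 nearest profiles. The members and lists were chosen with earlier results of these data known. Alternatives were other filters, normalizations, variance models, array weights, a replicate block and leaving out each array. Same-numbered arrays deviated from their group means with correlations of -0.27, -0.16 and -0.08, so the numbers were not taken as pairs.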

Additional observations from a re-analysis of the deposited data

How the results depend on the processing

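The log2 difference of CDC27, which chose the set and is a description, ran from -1.10 to -0.99 when 1 array was left out and from -1.06 to -1.03 otherwise. No tested partner was called under any of them. As each member had 1 cluster, averaging a gene's clusters changed nothing. The count of called clusters (613) was 238 without a filter, 1102 with a filter at a log2 signal of 6, 965 with an intensity trend and robust estimation, and 129 to 411 leaving out 1 array. The count of called pathway genes (4) was 1, 10 and 7 under the same 3 settings and 0 to 1 leaving out 1 array. With the replicate number as a replicate block 51 clusters and 0 pathway genes were called, on fewer degrees of freedom, and the CDC27 difference was -1.05. ANAPC15 also lost its call without a filter (limma adjusted p = 0.10), where more clusters were tested. ANAPC10 was too dim to compare.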
